A study of Arabidopsis thaliana with 5 samples.

Results

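AtSMOS1 peaks that lay inside protein-coding genes, away from any SCL28 peak, are described here. A peak of SNOS1-GFP replicate 1 on chromosomes 1 to 5 was a member when it shared at least 1 bp with a peak of SNOS1-GFP replicate 2, shared none with a peak of either E1M-GFP list, and had its summit between the transcription start site (TSS) and the end of an annotated protein-coding gene. This rule gave 1270 members of the 5438 replicate 1 peaks. The members were thus chosen by the peak positions of all 4 ChIP lists. Their reproducibility, the lack of an SCL28 peak and their place inside a gene are therefore given as a description. A missing SCL28 peak means only that none was called, and does not show that SCL28 was absent. SNOS1-GFP is a Col-0 line with AtSMOS1, an AP2-type transcription factor, fused to GFP under its own promoter, and E1M-GFP is a line with SCL28, a GRAS-family transcription factor, fused to GFP, for which the sources name different promoters. Chromatin of whole seedlings of each line was precipitated with an anti-GFP antibody in 2 replicates, and total chromatin of Col-0 plants without a transgene gave 1 WT input list. Whole seedlings mix many cell types, and a peak cannot be assigned to one of them. The 5 lists held 5438 and 6934 SNOS1-GFP peaks, 488 and 396 E1M-GFP peaks and 5695 input peaks on chromosomes 1 to 5. Every peak of both replicate 2 lists carried the name of the other protein inside its list, and the labels were followed here. As in replicate 1, the list labelled SNOS1-GFP was the longer one in replicate 2, and 81.1% of the SNOS1-GFP replicate 1 peaks overlapped it. It also held a 14.5-fold peak over AT2G41710, the gene of AtSMOS1. An E1M-GFP peak overlapped that peak too, so that its presence alone does not separate the labels. Without the replicate 2 lists, the same rule gave 1616 peaks, of which 48.3% lay in the 5′ UTR, and without the replicate 1 lists it gave 2204, of which 49.6% did.

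AP2-type factors bind short DNA sequences and act on the transcription of nearby genes. Plant genes also carry regulatory sequence in the 5′ UTR, which lies next to the promoter, in the first intron and, downstream of the coding sequence, in the 3′ UTR. In rice, the related factor SMOS1 is known for its part in organ size, together with a GRAS-family partner, and the peaks described here are those at which AtSMOS1 was called without SCL28. The G-box, CACGTG, is a palindromic hexamer recognised by bHLH and bZIP factors in plants.

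Sequences around a G-box near a summit are printed here, and 148 of the 1270 members had a G-box in the 200 bp around the summit. In each compartment of the gene, 30 bases are printed for the strongest of the 5 highest members that had a G-box in the 200 bp around the summit, 5′ to 3′ on the strand of the gene, with the hexamer in capitals. In PUB18 (AT1G10560, chr1:3484410-3484439, TAIR10, + strand), the G-box lay in the 5′ UTR and 19 bp from the summit. In AT3G44610 (chr3:16190461-16190490, − strand) it lay 78 bp from a summit in the first intron, and in AT4G36170 (chr4:17119613-17119642, + strand) 9 bp from a summit in a coding exon. None of the 5 highest members in another intron or in the 3′ UTR had one. The highest members there with a G-box were chosen after their values were seen, and they were in CKX5 (AT1G75450, chr1:28315880-28315909, − strand, an intron after the first) and AT5G05140 (chr5:1523049-1523078, + strand, 3′ UTR), with the hexamer 29 bp and 68 bp from the summit.
PUB18, 5′ UTR: ttcgacggatctCACGTGgcactctgtcag
AT3G44610, first intron: atcactcagagaCACGTGtaagtcttgtag
AT4G36170, coding exon: agtggacttttcCACGTGcgaaaacgacag
CKX5, other intron: aaaaaaactagaCACGTGgtacatgggatt
AT5G05140, 3′ UTR: caccacatgaacCACGTGgacttctacaac

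Summits inside genes gathered at both ends and were scarce in coding sequence. Of the 1270 members, 611 (48.1%, exact 95% CI 45.3 to 50.9%) had their summit in the 5′ UTR and 356 (28.0%, 25.6 to 30.6%) in the 3′ UTR. Another 94 (7.40%, 6.02 to 8.98%) lay in the first intron and 127 (10%, 8.40 to 11.8%) in another intron. Coding exons held 76 (5.98%, 4.74 to 7.43%), although they made up 51.2% of all gene-body bases. The remaining 6 summits lay in the span of a gene but in none of its gene models. Intervals here and below are Clopper-Pearson, Poisson or Newcombe intervals, which cover counting error only.

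Since the compartments differ in size, the summits were also counted per Mb. The 5′ UTR held 118 members per Mb (95% Poisson interval 109 to 128), the 3′ UTR 54.8 (49.3 to 60.8), the first intron 16.5 (13.3 to 20.2) and the other introns 9.04 (7.54 to 10.8). Coding exons held 2.3 per Mb (1.81 to 2.88), so that the 5′ UTR was 51.2-fold and the 3′ UTR 23.8-fold denser than coding exons. No interval of these 5 densities overlapped another. The density in 5′ UTRs was also above the 89.7 promoter peaks per Mb. Promoter peaks are the 1497 SNOS1-GFP peaks chosen in the same way but with another place of the summit. It lay outside every protein-coding gene and at most 1 kb upstream of a TSS. The promoter value is averaged over that whole stretch, whereas 5′ UTR summits had a median distance of 90 bp from the TSS. At equal distance, within 50 bp of a TSS, the counts were 203 members and 190 promoter peaks.

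The WT input list was distributed in another way. One of the study's descriptions of peak calling names this input as the control for the ChIP samples, so that fewer members where the input is high can be built into the calls, and the comparison is a description. Of 2970 input peaks with a summit inside a gene, 2411 (81.2%, 79.7 to 82.6%) lay in coding exons and 231 (7.78%, 6.84 to 8.80%) in the 5′ UTR. In coding exons, members had 2.3 summits per Mb against 73.0 for the input, and in 3′ UTRs 54.8 against 13.7. In first introns the values were 16.5 for members and 17.6 (14.3 to 21.4) for the input, and in other introns 9.04 and 9.68 (8.12 to 11.5), so that the intervals overlapped in both kinds of intron.

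**Figure D1:**
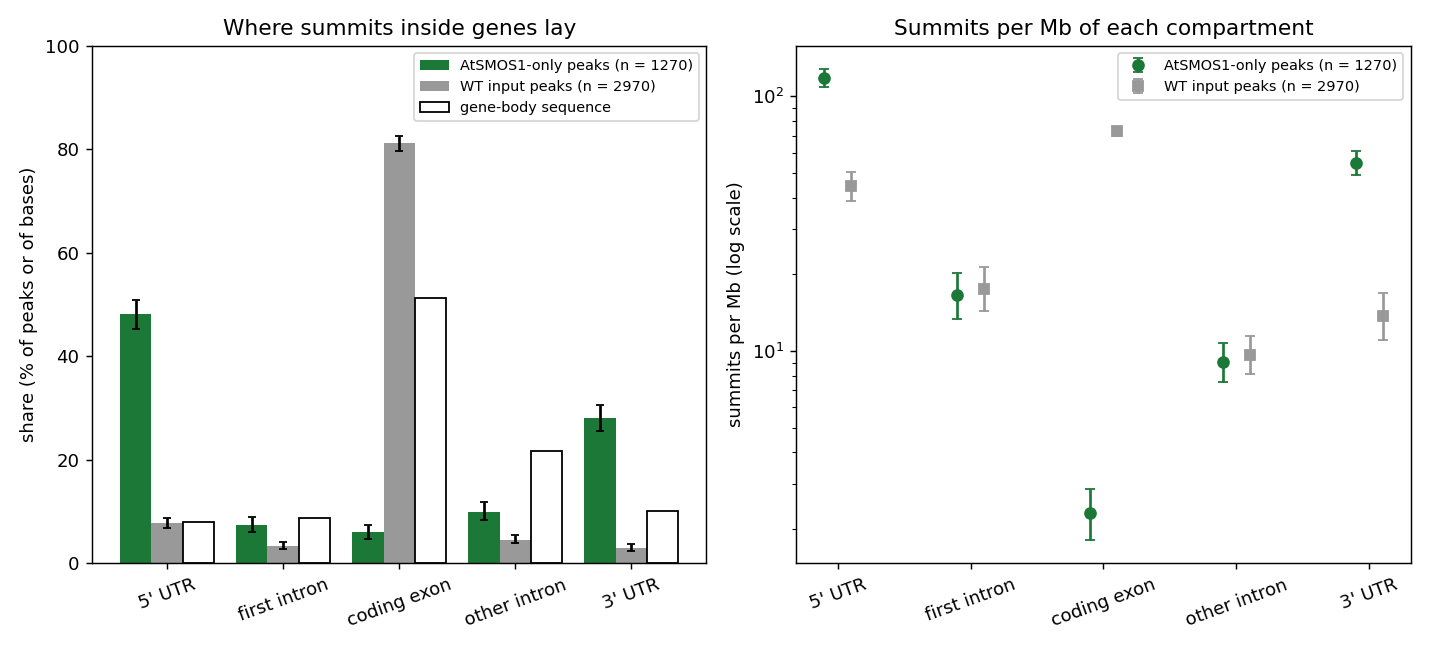
Left, share of summits in each compartment for the 1270 AtSMOS1-only peaks inside genes and for 2970 WT input peaks inside genes, with the share of gene-body bases as open bars; error bars are exact 95% intervals. Right, summits per Mb of the same compartments on a log axis, with 95% Poisson intervals: the AtSMOS1-only peaks were at 118 per Mb in the 5′ UTR and 2.3 in coding exons, the input at 44.5 and 73.0.

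Members and input peaks rarely coincided, which can likewise be built into peaks called against the input. Only 5 of 1270 members (0.394%, 0.128 to 0.916%) overlapped an input peak, against 7 of 1497 promoter peaks (0.468%, 0.188 to 0.961%). The difference was −0.07 percentage points (95% Newcombe interval −0.62 to 0.50), so that no difference was detectable at these counts. The 5 members were in S6K2, AT3G19274, TBL6 and AT4G37550, in the 5′ UTR, and in AT1G05700, in the 3′ UTR. S6K2, a ribosomal protein S6 kinase, had fold enrichments of 2.32 in replicate 1 and 2.77 in replicate 2, low among the members, and TBL6 had 5.34 and 5.15, high among them.

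Along the gene, members fell off steeply from the TSS. The first 100 bp held 340 members, or 124 per Mb of gene body (111 to 138), the next 100 bp held 62.2 per Mb, and the stretch from 500 to 600 bp held 4.62 (2.39 to 8.08). From 1100 to 1200 bp the density was 16.4 per Mb (11.5 to 22.7), higher than at 500 to 600 bp. The same shape was seen when the summits were taken from the replicate 2 list (1199 peaks), with 129 per Mb in the first 100 bp, 6.16 at 500 to 600 bp and 13.2 at 1100 to 1200 bp. Input summits ran the other way over the first 300 bp, with 51.0 per Mb in the first 100 bp and 128 from 200 to 300 bp. Within 500 bp of the TSS lay 49.1% of members (46.3 to 51.8%) and 46.1% of input peaks (44.3 to 47.9%), whereas within 100 bp it was 27.0% (24.6 to 29.5%) and 4.85% (4.10 to 5.68%).

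A second, lower rise stood at the end of the gene. The last 100 bp held 144 members (52.5 per Mb, 44.3 to 61.8) and the stretch from 600 to 700 bp before the end 6.30 (3.60 to 10.2). Replicate 2 gave 43.4 and 4.72 per Mb in the same stretches. The input had 19.7 per Mb in the last 100 bp and 63.4 from 600 to 700 bp before the end. Over 500 bp from both ends lay 287 members (22.6%), against 41.9% of input peaks. This gap was not seen deeper in the gene. Over 1000 bp from both ends lay 11.7% of members (9.94 to 13.5%) and 10.98% of input peaks (9.87 to 12.2%), with overlapping intervals.

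**Figure D2:**
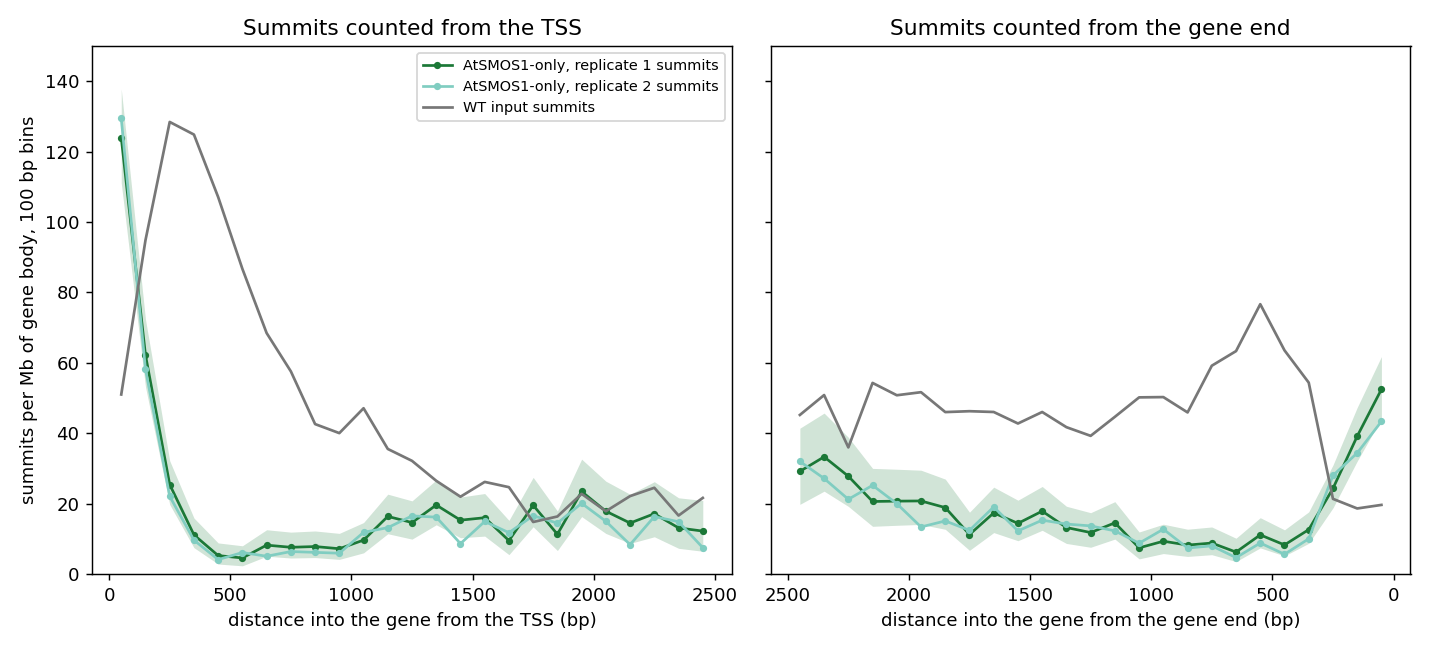
Summits per Mb of gene body in bins of 100 bp, by distance from the TSS (left) and from the gene end (right), for AtSMOS1-only peaks of replicate 1 (dark green, 95% Poisson band), of replicate 2 (light green) and for the WT input (grey). AtSMOS1-only summits peaked in the first 100 bp, at 124 per Mb, and again in the last 100 bp, at 52.5, where the input was at 51.0 and 19.7.

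Median peak height ranged from 3.63 to 3.83 over the compartments in replicate 1 and from 3.56 to 3.85 in replicate 2, and the differences were not tested. The fold enrichment, which the peak caller gives at the summit over its local background, had a median of 3.73 in replicate 1 and 3.62 in replicate 2 for the 5′ UTR, and of 3.83 and 3.72 for the 3′ UTR. First introns had 3.77 and 3.73, other introns 3.76 and 3.85, and coding exons 3.63 and 3.56. All members together had 3.76 and 3.69, with quartiles of 3.25 and 4.38 in replicate 1, against 3.80 and 3.68 for promoter peaks. Across the 1270 members, fold enrichment in both replicates had a Spearman rho of 0.51 and a Pearson r of 0.53 on the log2 scale, given as a description since the peaks share their libraries, and 570 members were higher in replicate 2.

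**Figure D3:**
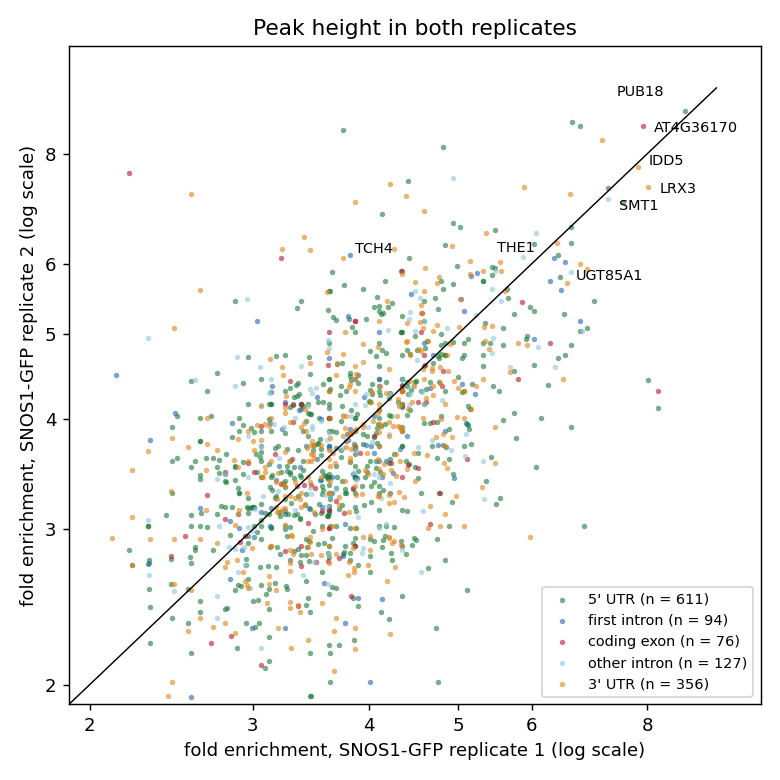
Fold enrichment of each member in SNOS1-GFP replicate 1 and in the overlapping replicate 2 peak, both on log axes, coloured by compartment, with the line of equal values. The compartments overlap throughout, and PUB18 stands highest in both, with 8.78 in replicate 1 and 8.95 in replicate 2.

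The position of the replicate 2 summit was not used by the rule, although overlap with its peak was required. Whether both summits share a compartment can also depend on compartment size and peak width, which was not tested. In NUDT21, the coding-exon member lay 672 bp from the summit of a 950 bp replicate 2 peak. The replicate 2 summit lay in the same compartment of the same gene for 977 members (76.9%, 74.5 to 79.2%). The share was 89.8% (83.1 to 94.4%) for other introns, 87.2% (78.8 to 93.2%) for first introns, 76.4% (71.6 to 80.7%) for the 3′ UTR and 75.5% (71.8 to 78.8%) for the 5′ UTR. It was 55.3% (43.4 to 66.7%) for coding exons. For 130 of the 611 members of the 5′ UTR and 52 of the 356 of the 3′ UTR, the replicate 2 summit was outside every protein-coding gene. The median distance between the summits was 43 bp in the 5′ UTR and 97.5 bp in coding exons. Many members at the start of a gene also reached beyond it: 345 of the 611 peaks with a summit in the 5′ UTR (56.5%) extended upstream over the TSS, and 173 of the 356 in the 3′ UTR (48.6%) extended past the gene end.

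The share of replicate 1 peaks found again in replicate 2 was lowest in coding exons. Among replicate 1 peaks without an SCL28 peak it was 81.8% for the 3′ UTR, 81.0% for first introns, 78.9% for other introns, 78.4% for the 5′ UTR and 67.3% for coding exons (57.8 to 75.8%), against 79.2% for promoters (77.3 to 81.0%). Coding exons were thus lowest in the share found again and in the share with both summits in the same compartment.

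Peaks also lay close to the edges of the rule, on both sides. Within 50 bp of a TSS lay 203 members on the gene side and 190 promoter peaks on the other. The member in TRFL3 had its summit on the first base of the gene and fold enrichments of 4.02 and 3.36, while the promoter peak of AT1G17090 was 1 bp upstream and had 3.62 and 3.17. The member nearest to an SCL28 peak, in AT1G70590, was 101 bp from it, and the peak in ZIF1 was left out because it shared 64 bp with one. CBF1, a cold-response AP2 factor, held a member that shared 7 bp with replicate 2 (3.23 and 6.24), the smallest overlap together with that in AT1G66500.

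In the 5′ UTR, summits had a median distance of 90 bp from the TSS. PUB18, a plant U-box ubiquitin ligase, held the highest member (chr1:3484190-3484628), 45 bp after the TSS, with fold enrichments of 8.78 in replicate 1 and 8.95 in replicate 2. AT4G02540, a C1-domain protein, had 6.77 and 8.61, and NOI (AT5G55850), of the RIN4 family of immune regulators, had 6.63 and 8.69 at 29 bp after the TSS. Both were higher in replicate 2, and the NOI summit lay outside the gene in that replicate. EXL5 (AT2G17230), of the EXORDIUM-like family, had 7.53 and 7.05 at 246 bp, and AT2G23690 had 7.25 and 7.32 at 20 bp. THE1 (AT5G54380), a receptor kinase that senses the state of the cell wall, had 6.41 and 6.14, with both summits in the 5′ UTR and 9 bp apart.

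In first introns, the median distance from the TSS was 1079 bp. Genes can have several models with other starts, and the median distance to the nearest model start was 923 bp. Within 500 bp of such a start lay 28 of the 94 members (29.8%). The highest member was in UGT85A1 (AT1G22400), a glycosyltransferase, with 6.53 in replicate 1 and 6.03 in replicate 2 at 1959 bp. AT3G52700 had 6.35 and 6.10, and TUB5 (AT1G20010), a beta-tubulin, had 6.45 and 5.61 at 1253 bp. AT5G02230, a haloacid dehalogenase-like hydrolase, had 6.28 and 5.74. The protein kinase gene AT3G44610 had 6.77 and 5.16 in its first intron and held another member. For all 5 genes the replicate 2 summit lay in the first intron too, and each value was lower in replicate 2.

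Other introns held members at a median of 1932 bp from the TSS. SMT1 (AT5G13710), a sterol methyltransferase of the sterol pathway, had 7.26 in replicate 1 and 7.11 in replicate 2 at 834 bp, and AT1G22490, a bHLH factor, had 6.07 and 6.51. DFL2 (AT4G03400), of the auxin-responsive GH3 family, had 6.61 and 5.88, but its summit was also at most 1 kb upstream of AT4G03410, and its replicate 2 summit, 127 bp away, fell in the 5′ UTR of DFL2. AT1G36050, a vesicle transport protein, had 4.94 and 7.50. NRT1.1 (AT1G12110), the nitrate transporter and sensor, had 5.87 and 6.11 at 1937 bp, with summits 29 bp apart. The lone member in CYCJ18 (AT2G01905), a cyclin, had 5.56 and 5.45 at 2179 bp. No G-box lay in the 200 bp around the SMT1 summit, whose central 30 bases (chr5:4426475-4426504, − strand) are shown without capitals.
SMT1, other intron: tttcaatacagcagaaaaaagaaaaatgat

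In the 3′ UTR, summits had a median distance of 142 bp from the gene end. IDD5 (AT2G02070), an INDETERMINATE DOMAIN zinc-finger factor, was the highest, with 7.82 in replicate 1 and 7.73 in replicate 2, and its summits were 12 bp apart. PLDP1 (AT3G16785), a phospholipase D, had 7.15 and 8.28 at 159 bp from the end of a gene of 8304 bp. LRX3 (AT4G13340), a leucine-rich repeat extensin of the cell wall, had 8.02 and 7.33 at 32 bp from the end. RALF23 (AT3G16570), a secreted peptide ligand, had 6.60 and 7.20, and AT5G25280 had 5.89 and 7.34. All 5 replicate 2 summits lay in the same 3′ UTR. The 30 bases at the IDD5 summit (chr2:509789-509818, + strand) held no G-box.
IDD5, 3′ UTR: ttcttttcatttgtcatcttcactagctgg

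The highest members in coding exons were often close to a gene end or in a very short gene. AT4G36170, an uncharacterized protein, had 7.92 in replicate 1 and 8.59 in replicate 2 at 215 bp before the gene end. AT1G23995 had 8.22 and 4.30 in a gene of 300 bp, AT4G03113 had 5.85 and 5.44 in one of 189 bp, and AT5G39785 had 6.28 and 4.88 at 182 bp before the end. AT4G19520, a disease resistance gene of the TIR-NBS-LRR class, had 5.80 and 4.45 at 6961 bp from the TSS, and its replicate 2 summit was in an intron. Of all 76 members in coding exons, 33 (43.4%) were within 500 bp of the gene end and 19 (25%) within 500 bp of the TSS, while 34 were over 500 bp from both. Of all 76, wherever they lay, 34 were in genes that held a further member.

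A member inside one gene can also lie in the promoter of the next. In the 3′ UTR, 122 of 356 summits (34.3%, 29.3 to 39.5%) were at most 1 kb upstream of the TSS of another protein-coding gene, against 31.2% of all 3′ UTR bases. Members were therefore nearly as dense in the rest of the 3′ UTR, with 60.3 per Mb (50.1 to 72.0) upstream of another TSS and 52.4 (45.9 to 59.5) elsewhere. In the 5′ UTR the densities were 107 (86.8 to 131) and 120 (110 to 131). Coding exons differed: 19 of 76 members (25%, 15.8 to 36.3%) were upstream of another TSS, against 11.8% of coding bases, with 4.89 per Mb (2.94 to 7.64) there and 1.96 (1.48 to 2.53) elsewhere. In all, 29 members lay inside an annotated gene that is not protein-coding and 28 in more than 1 protein-coding gene.

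The 1270 members fell in 1145 genes, which is 4.17% of the 27444 protein-coding genes. The host genes were longer than protein-coding genes as a whole, with a median of 2577 bp against 2078 bp. The members were spread over all 5 chromosomes at 18.1 to 20.8 per Mb of gene body. Most host genes (1036) held 1 member, 94 held 2, 14 held 3 and AT1G61890, a MATE efflux transporter, held 4. These counts are of replicate 1 peaks, and several members of a gene could overlap the same replicate 2 peak. This was so in AT1G61890, where members shared a replicate 2 peak of 2468 bp. Of the 109 genes with more than 1 member, 45 had one in the 5′ UTR and one in the 3′ UTR. An AtSMOS1 summit of a peak found in both replicates, with or without an SCL28 peak, was also counted upstream of genes. It lay at most 1 kb upstream of the TSS of 203 host genes (17.7%), against 7.27% of all protein-coding genes. This share was 41.4% for host genes of members in coding exons, 28.3% for the 3′ UTR, 15.6% for first introns, 13.8% for the 5′ UTR and 9.02% for other introns. Since all of these summits come from the same libraries, the shares are a description.

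The 15 genes with at least 3 members were picked out by their counts, and TCH3 and TCH4 among them are known for their induction by touch. TCH4 (AT5G57560), a xyloglucan endotransglucosylase, held members in the 5′ UTR, a coding exon and the 3′ UTR with 4.42, 3.22 and 3.76 in replicate 1, and all 3 overlapped a replicate 2 peak with 6.09. TCH3 (AT2G41100), a calmodulin-like protein, held 2 members in the 5′ UTR and 1 in the 3′ UTR, between 3.30 and 4.35 in replicate 1 and between 2.90 and 4.16 in replicate 2. XTH24 (AT4G30270), another xyloglucan endotransglucosylase, had 3.44 to 4.69 in replicate 1 and 3.05 to 3.97 in replicate 2 over a gene of 1404 bp. WRKY7 (AT4G24240), a WRKY factor, had members in the 5′ UTR, an intron and the 3′ UTR, with 5.10 in replicate 1 and 3.85 in replicate 2 in the intron. LRX3 had 4.60 and 4.81 in the 5′ UTR and 2.45 and 2.80 in a coding exon, both below the 8.02 and 7.33 of its 3′ UTR. In AT1G61890 and TCH4, single members were up to 1382 bp and 1372 bp wide, where the median width of all members was 212 bp.

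AT2G41710, the gene of AtSMOS1 itself, held no member. Its only peak in each replicate had fold enrichments of 15.2 and 14.5, a summit 236 bp and 251 bp upstream of the TSS, and an overlap with an E1M-GFP peak. The peak spanned the whole gene (chr2:17399875-17404197 in replicate 1), which is also present in the transgene, and the endogenous and the introduced copy cannot be told apart.

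The host genes were grouped by words in the RefSeq product names or symbols, and each list was read against the 4.17% of all protein-coding genes with a member. The lists are thus rough. The cell cycle list also took kinesins, and the ubiquitin ligase list took any name with ubiquitin. Products named only as integrase-type DNA-binding, such as that of DREB26, matched no word for transcription factors. Among hormone response genes 25 of 272 (9.19%) held a member, among light and clock genes 7 of 96 (7.29%), among cell wall genes 33 of 468 (7.05%), among transcription factors 72 of 1049 (6.86%) and among protein kinases 95 of 1388 (6.84%). Disease resistance genes were at 12 of 194 (6.19%) and transporters at 33 of 580 (5.69%). Genes for RNA-binding proteins (10 of 313, 3.19%), the cell cycle (4 of 145, 2.76%), ubiquitin ligases (29 of 1440, 2.01%), photosynthesis (1 of 79, 1.27%) and ribosomal proteins (1 of 344, 0.291%) were below it. The list of protein kinases had its members mainly in the 5′ UTR, with 67 of 104, and the list of hormone response genes had 9 of 27 there. These lists differ in gene length, with a median of 3004 bp for protein kinases and 1565 bp for ribosomal proteins, and the part of gene length in these shares was not tested.

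**Figure D4:**
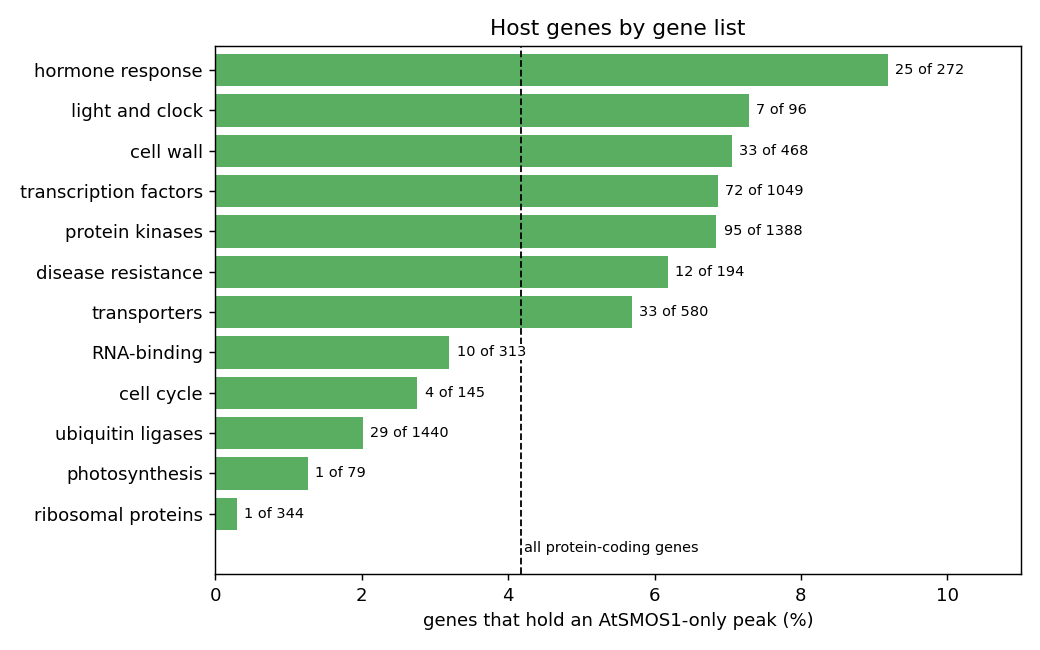
Share of the genes of each list that held an AtSMOS1-only peak, with the counts beside each bar and the 4.17% of all protein-coding genes as a dashed line. Hormone response genes stand highest, at 9.19%, and ribosomal proteins lowest, at 0.291%.

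The highest member of each list shows what the words caught. For the ribosomal list it was AT5G07090, a ribosomal protein S4, with 5.02 in replicate 1 and 5.48 in replicate 2 in the 3′ UTR, 39 bp from the gene end and at most 1 kb upstream of AT5G07100. For photosynthesis it was HCF173 (AT1G16720), needed for synthesis of a photosystem II core protein, with 3.36 and 3.28. The light and clock list was led by AT5G20110, a light chain of the motor protein dynein that the word light caught, with 4.44 and 5.54. AT1G78040, an extensin-family protein, led the cell wall list with 5.48 and 5.93 in the 5′ UTR. The RNA-binding list was led by AT1G22330, with 6.36 and 4.58 in an intron, and the disease resistance list by AT1G61100, with 5.65 and 5.62 at 2 bp from the TSS.

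Sequence around the summit was not used by the rule. A G-box lay in the 200 bp centred on the summit in 148 of 1270 members (11.7%, 9.94 to 13.5%), against 261 of 1497 promoter peaks (17.4%, 15.5 to 19.5%). The difference was −5.78 percentage points (95% Newcombe interval −8.38 to −3.15), so that members had fewer. It was not adjusted for the shares in windows given next. Both sets stood above all 200 bp windows tiled over gene bodies and over promoters, of which 1.96% and 3.50% held a G-box. Coding exons made up 165155 of the 322389 gene-body windows but held 76 of the 1270 members. The windows of each compartment, given below, are thus the closer comparison for members.

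By compartment, the G-box was found in 15 of 94 members in first introns (16.0%, 9.22 to 25%), against 1.23% of all first-intron windows. It was found in 12 of 76 in coding exons (15.8%, 8.43 to 26.0%), against 2.15% of windows, and in 10 of 127 in other introns (7.87%, 3.84 to 14.0%), against 1.19%. The 3′ UTR had 38 of 356 (10.7%, 7.67 to 14.4%), against 1.68%, and the 5′ UTR 71 of 611 (11.6%, 9.19 to 14.4%), against 3.96%. The share in windows lay below the interval of the members in all 5 compartments. The intervals of the compartments overlapped each other.

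The G-box was also centred on the summits. In the central 100 bp it was found in 89 of 1270 members (7.01%, 5.67 to 8.55%), against 33 of 2540 windows of 100 bp centred 300 bp to either side (1.3%, 0.896 to 1.82%). In other introns it was 9 of 127 at the centre and 0 of 254 beside it. Among members with a G-box in 200 bp, the median distance from the hexamer to the summit was 42 bp, against 37 bp for promoter peaks. The 200 bp window limits this distance, so that it does not show centring by itself. The share with a G-box did not follow peak height, with 11.8%, 13% and 10.1% of the members when divided into equal parts from the highest to the lowest mean fold enrichment, and overlapping intervals.

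Other short sequences differed in where they were found. TGGGCC, the core of the site II element of plant promoters, was found in 39 of 356 members in the 3′ UTR (11%, 7.91 to 14.7%), against 2.92% of 3′ UTR windows, and in 45 of 611 in the 5′ UTR (7.36%, 5.42 to 9.73%), against 5.45%. In the 3′ UTR it was in 15.6% of members upstream of another TSS (9.64 to 23.2%) and in 8.55% of the rest (5.30 to 12.9%). The highest 3′ UTR member with it was in AT5G10560 (chr5:3335989-3336018, − strand), a glycosyl hydrolase with 6.88 in replicate 1 and 5.92 in replicate 2, chosen after its value was seen and printed with the hexamer, here on the strand opposite to the gene, in capitals.
AT5G10560, 3′ UTR: caaggatccgacGGCCCAgattttacccaa

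GAGAGA, a GA repeat common in plant 5′ UTRs, was in 256 of 611 members of the 5′ UTR (41.9%, 38.0 to 45.9%), and 42.3% of all 5′ UTR windows held it. It was more frequent at the summit than beside it, in 158 of 611 central windows of 100 bp (25.9%, 22.4 to 29.5%) against 13.7% of those centred 300 bp to either side (11.8 to 15.7%), which need not lie in the 5′ UTR. It is shown for AT4G02540 (chr4:1117152-1117181, + strand), where it lay 7 bp from the summit and on the opposite strand. The telobox AAACCCTA was rarer in members of the 5′ UTR than in its windows, with 18 of 611 (2.95%, 1.76 to 4.62%) against 8.41%.
AT4G02540, 5′ UTR: ttaatttacaaaTCTCTCtctttctttctc

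All sequences were searched on both strands. The gene-body windows used here are pooled over compartments, and coding exons weigh more among them than among members. ACGTG, which is part of the G-box and overlaps it, was in 28.9% of members (26.4 to 31.5%), against 38.3% of promoter peaks (35.8 to 40.8%) and 12% of gene-body windows. GTGCAC was in 1.26% of members (0.722 to 2.04%), CTCGAG in 2.13% (1.41 to 3.08%) and GCCGCC, the GCC-box of ERF-type AP2 factors, in 2.91% (2.06 to 3.99%), against 1.53%, 3.30% and 2.93% of gene-body windows. CCGAC, the core of the DRE bound by DREB-type AP2 factors, was in 14.4% of members (12.5 to 16.5%) and 10.4% of gene-body windows. In the 5′ UTR it was in 14.2% of members against 13.5% of windows, while the other compartments were above their windows. In windows of 100 bp it was found at 8.11% of summits (6.67 to 9.75%) and in 7.28% beside them (6.30 to 8.36%). The motif of 12 bases that the study names for peaks shared by SCL28 and AtSMOS1 was found in 0 of 1270 members, which allows a share of up to 0.29% (exact upper limit), and in 1 of 1497 promoter peaks. It lay in 0.184% of all gene-body windows, so that this count cannot tell the members from their surroundings. With 1 mismatch allowed, it was found in 3.46% of members (2.53 to 4.62%), for which no share of windows is given here.

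The base composition of the members was within 3 percentage points of that of their compartment. The 200 bp around the summit had a median GC content of 36.5% in the 5′ UTR, 34% in first introns, 40.5% in coding exons, 33.5% in other introns and 34% in the 3′ UTR. The mean over all windows of these compartments was 36.7%, 33.9%, 42.0%, 36.0% and 33.5%.

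**Figure D5:**
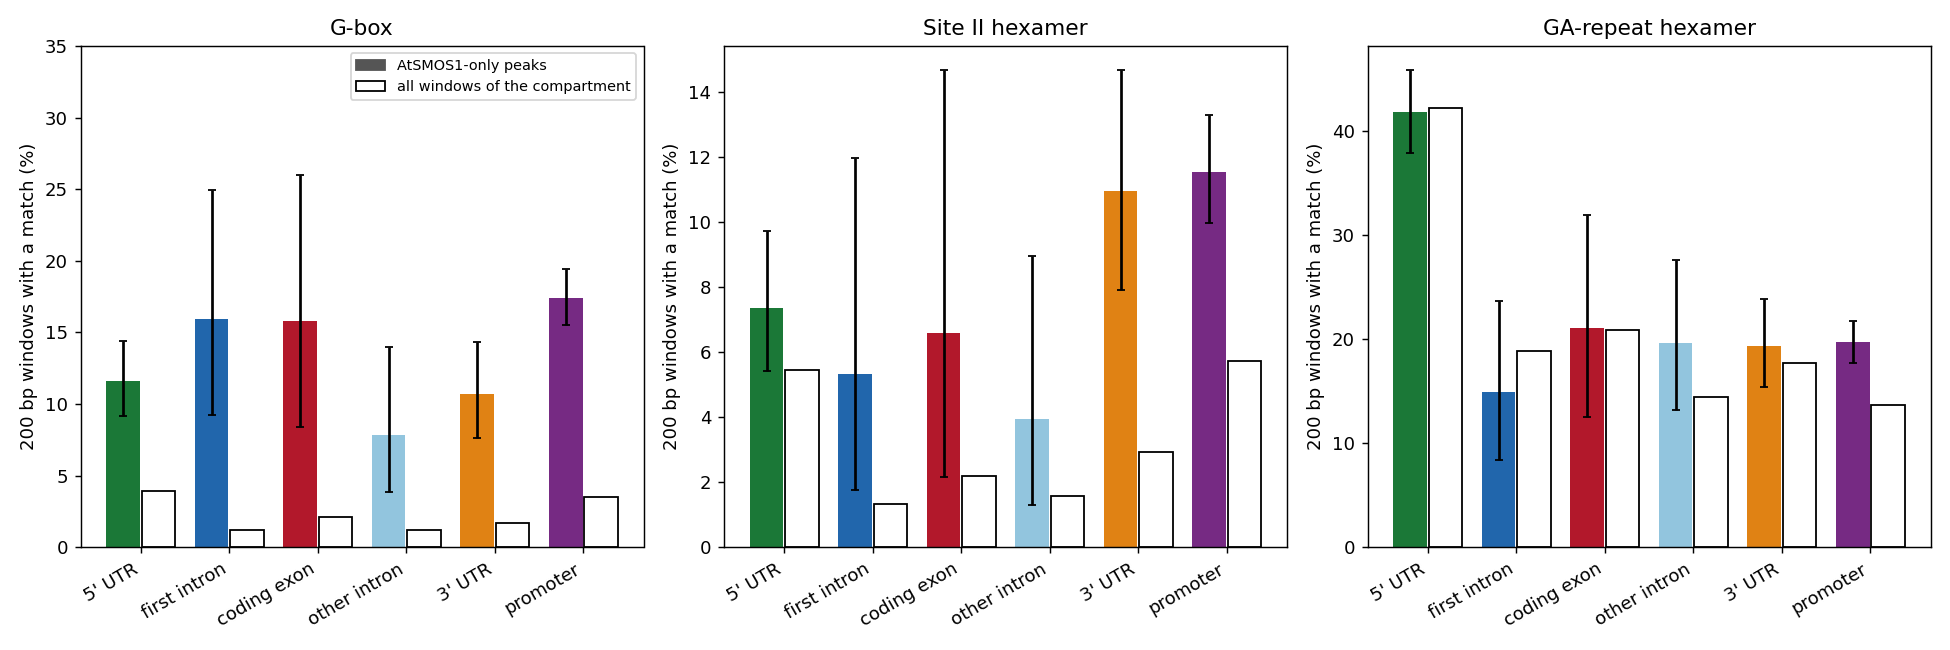
Share of 200 bp windows with a G-box, a site II hexamer or a GA-repeat hexamer, for AtSMOS1-only peaks by compartment and for promoter peaks (coloured bars, exact 95% intervals) and for all windows tiled over the same compartment (open bars). The G-box exceeded its windows in all 5 compartments inside genes, from 7.87% to 16.0% of members, while the GA repeat in the 5′ UTR was at 41.9% against 42.3%.

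The members were set beside the 77 reproducible AtSMOS1 peaks inside genes that did overlap an SCL28 peak. In the 5′ UTR lay 48.1% of members, against 42 of these 77 peaks (54.5%, 42.8 to 65.9%), and in the 3′ UTR 28.0% of members, against 17 (22.1%, 13.4 to 33.0%). Coding exons held 5.98% of members and 6 of the 77 peaks (7.79%, 2.91 to 16.2%). The share of the members lay within the interval of the shared peaks in each of these 3 compartments.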

How the data were processed

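ChIP-Seq peak lists of 2 SNOS1-GFP replicates, 2 E1M-GFP replicates and 1 WT input were used as deposited, and reads were not used. Per the labels and the study's methods, the authors trimmed reads (Trimmomatic 0.38), aligned them to TAIR10 (Bowtie2 2.3.5, SAMtools 1.9) and called peaks for each sample with MACS2 2.2.7.1 at a q value cutoff of 0.05. The fold enrichment, a ratio, the −log10 p and q values and the score (the −log10 q times 10, cut to a whole number) were deposited by the authors. Versions are those of the submitters' processing notes. The study's text describes the aligner, the fragment size and the narrow or broad peak setting in 2 ways that differ, and one of them names the input as the control for the ChIP samples. The control for the input itself is not given in the sources used here. The lists hold no read counts, so the depth is unknown from them, and the read numbers that the study states were not used here.

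Genes were taken from RefSeq TAIR10.1, whose chromosomes 1 to 5 are those of TAIR10. Peaks on organelle genomes were left out. A summit was given to the lowest-numbered gene model that contained it and, between overlapping genes, to the gene with the nearer TSS. Shares have exact (Clopper-Pearson) 95% intervals, densities Poisson intervals and differences Newcombe intervals. Python 3.11.15, numpy 2.4.6, scipy 1.17.1 and matplotlib 3.10.9 were used. On simulated data, all 300 planted summits got their compartment, and 955 of 1000 Clopper-Pearson and 955 of 1000 Newcombe intervals held the true value. Genes were named by rule: the 5 highest by the geometric mean of both replicates' fold enrichment in each compartment, the highest of each of the 12 gene lists, and AT2G41710, with the others picked for their counts, edges or motifs after their values were seen. The members and lists were chosen with earlier results of these data known. The replicates are labelled as biological, with the plants behind them not described further. Alternatives were other overlaps, thresholds, positions, gene models, windows and lists.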

Additional observations from a re-analysis of the deposited data

How the results depend on the processing

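No paired analysis was possible because each result comes from the overlap of peak lists, in which no value is fitted per replicate. The order of the compartment shares, the 5′ UTR first, the 3′ UTR second and every other compartment below 12%, and fewer G-boxes than in promoter peaks were found under every alternative run. With either replicate left out, the number of members was 1616 to 2204, the number of host genes 1451 to 1977, the share in coding exons 6.99 to 8.21% and the share in the 3′ UTR 24.9 to 27.0%. A −log10 q of at least 5 gave 473 members in 455 genes, with 45.2% in the 5′ UTR and 31.5% in the 3′ UTR. An overlap of at least 50% of both peaks gave 842 members, with 4.28% in coding exons. Without summits upstream of another TSS, other introns held 11.8% and the 3′ UTR 23.1%. Without members on input peaks, the input overlap was 0 by construction. The G-box share was 7.01% in 100 bp and 14.4% in whole peaks. The difference from promoter peaks in G-box share lay between −6.03 and −3.34 points in all alternatives, and its interval stayed below 0. The other 99 of 114 alternative values of the main results stayed within the 95% interval of the value reported or, for counts, within 1.5 times of it. The number of peaks, not the depth of reads, set these intervals. Median fold enrichment, the motif of 12 bases, the share within 500 bp of the TSS and single named genes were not among the 114. Median fold enrichment was 3.25 without the replicate 1 lists and 4.59 at a −log10 q of at least 5. The motif share was 3.46% with 1 mismatch.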
